A study of Mus musculus with 5 samples.

Results

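The genes described here carry sodium, chloride and water balance across the lung epithelium: the 3 subunits of the epithelial sodium channel (Scnn1a, Scnn1b, Scnn1g), the chloride channel Cftr, the sodium pump subunit Atp1b1, the ubiquitin ligase Nedd4l, the protease Prss8 and the protease inhibitors Spint1 and Spint2. These 9 genes were listed by name, and all their probe sets with a single gene symbol were taken, 20 of the 34958 such probe sets on the arrays. RNA came from GFP-positive cells that flow cytometry had isolated from trypsin-dissociated lungs of SPC-GFP mouse pups at postnatal day 2, bred from timed matings with outbred ICR mice. SPC commonly stands for surfactant protein C; the labels do not describe the transgene or say whether a replicate was 1 pup or a pool. All 5 samples were named biological replicates of 1 group, each with 1 array, so no genotype, age or treatment could be compared. Titles call the cells alveolar type 2 cells, and the design text calls them ciliated cells.

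At birth the lung changes from secreting fluid to absorbing it. Sodium enters the epithelial cell through the apical sodium channel and leaves through the basolateral sodium pump, and water follows. Chloride moves through CFTR and other channels, while serine proteases activate the sodium channel, Kunitz-type inhibitors restrain those proteases, and NEDD4L removes the channel from the membrane.

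Values are log2 signals, given per array for replicates 1 to 5 or as mean ± SD (n = 5), and levels of different probe sets were not ranked, since each has its own hybridisation strength. As background served, for every array, the 95th percentile of 86 probe sets of chemosensory receptor genes, most of which lung cells are not known to use. It lay at 5.37, 5.33, 5.44, 5.61 and 5.49. A probe set was called above background at an adjusted p under 0.05 in limma's one-sided test, as were 4 of those 86 (4.65%). Such p-values reflect only how much these 5 arrays differ. The sorted cells were checked against marker lists: 8 of 8 measured alveolar type 2 markers, 8 of 8 alveolar type 1 markers and 8 of 8 ciliated markers lay above background. So did 6 of 7 club and secretory, 7 of 7 fibroblast and smooth muscle, 4 of 4 endothelial, 4 of 4 immune and 3 of 5 basal markers. Of all 18194 genes at their brightest probe set 75.3% did. Means of the markers ran from 12.96 to 14.71 for alveolar type 2, 11.59 to 14.68 for alveolar type 1 and 7.91 to 9.75 for ciliated cells. Between the arrays the ciliated markers ranged over 1.58 log2 units and the fibroblast and smooth muscle markers over 1.15. Club and secretory markers ranged over 0.93, immune markers over 0.87, basal markers over 0.57 and endothelial markers over 0.36. The range was 0.28 for alveolar type 1 and 0.15 for alveolar type 2 markers. Replicate 1 had the highest ciliated markers (1.02 log2 units above their own mean, against -0.56 to 0.30 in the others) and the highest bioB and bioC hybridisation controls (12.73 against 11.78 to 11.98). Replicate 3 had the largest 3′ minus 5′ differences of Gapdh (1.67, against 1.27 to 1.60 in the others) and Actb (0.84, against 0.54 to 0.60).

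All 9 genes had at least 1 probe set above background. Of the 20 probe sets 19 were called, against 72.2% of all probe sets with 1 symbol. The median of the 20 lay 6.15 log2 units above background, and that of all 34958 lay 2.47 above it. The exception was a second probe set of Cftr. Genes with several probe sets counted more than once in this, Nedd4l with 6, Atp1b1 with 5, and Cftr and Spint2 with 2 each.

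**Figure D1:**
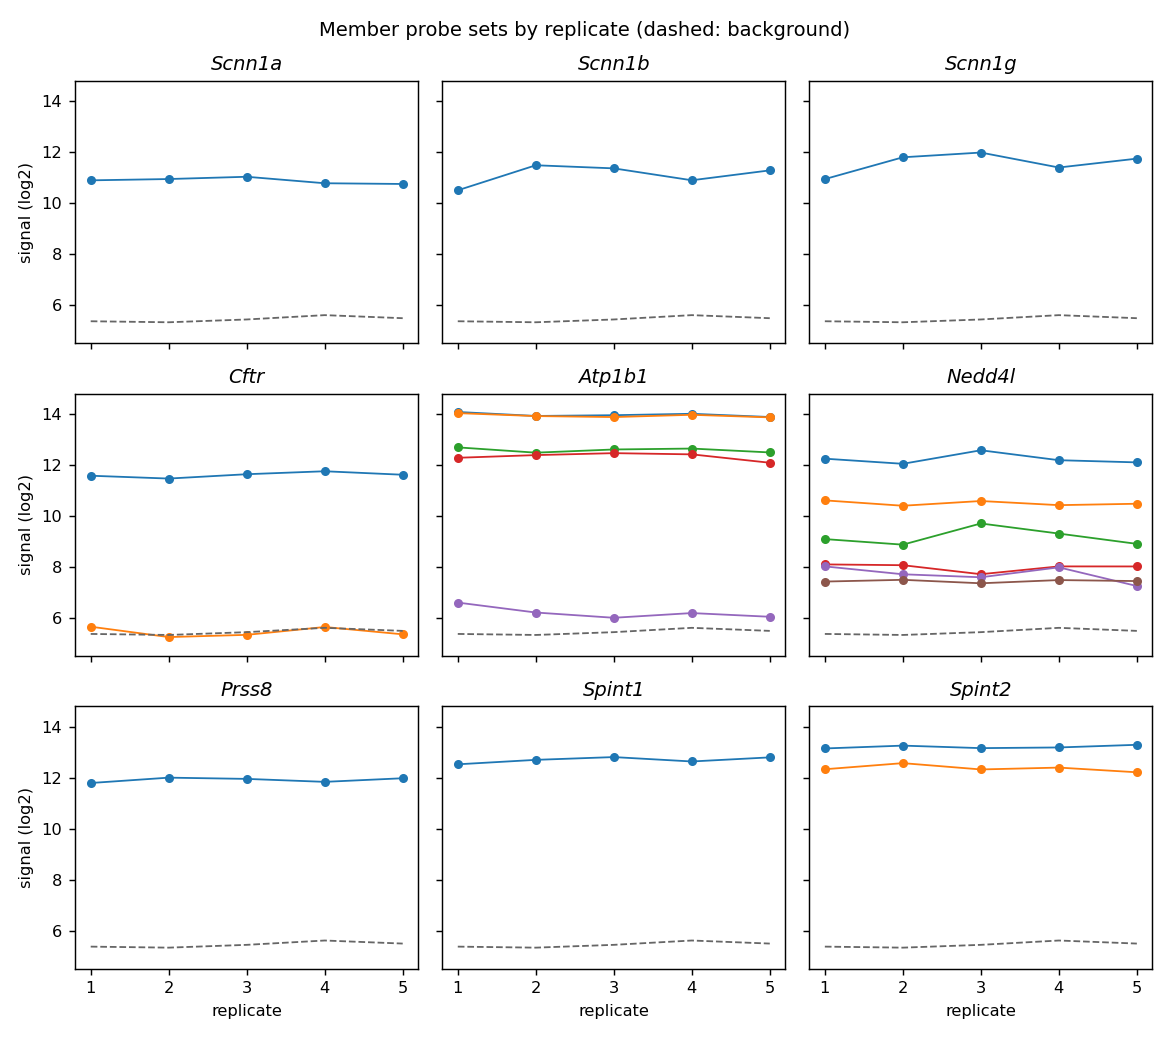
Log2 signal (vertical axis) of every probe set of the 9 genes in replicates 1 to 5 (horizontal axis); each coloured line is 1 probe set and the dashed line is the background of each array. Scnn1b and Scnn1g dip in replicates 1 and 4, and the lower Cftr line runs along the background.

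All 3 sodium channel subunits gave signal in every array, and the beta and gamma subunits had their low values in the same arrays. Scnn1a, the alpha subunit, which forms the channel with the beta and gamma subunits, read 10.90, 10.95, 11.04, 10.79 and 10.76 (10.89 ± 0.12). Its 5 arrays lay within 0.28 log2 units of each other, a 1.22-fold range. Scnn1b, the beta subunit, read 10.51, 11.49, 11.37, 10.90 and 11.29 (11.11 ± 0.40). Replicate 1 was lowest and replicate 4 next lowest, and the range was 0.98 log2 units or 1.98-fold. Scnn1g, the gamma subunit, read 10.95, 11.81, 11.99, 11.41 and 11.75 (11.58 ± 0.41). Again replicates 1 and 4 were the low arrays, and the range was 1.04 log2 units or 2.06-fold. All 3 subunits lay above background: Scnn1a by 5.44 (SE 0.086, limma adjusted p = 7.05e-18), Scnn1b by 5.67 (SE 0.13, adjusted p = 4.40e-16) and Scnn1g by 6.13 (SE 0.12, adjusted p = 1.18e-16).

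The SD of Scnn1g over the arrays was 3.57 times the SD that limma's trend fitted for probe sets of its signal, and that of Scnn1b 3.20 times. Before adjustment both passed a threshold of 0.05 in the F test, 2 of the 19 member probe sets, against 5.61% of all 25238 probe sets above background. Neither passed after adjustment (limma-based F test, adjusted p = 0.796 and 0.807). No probe set on the arrays did (0%). On simulated data with 5 arrays, SD was raised 5 times, which is more than the 3.57 and 3.20 seen here. The F test then recovered 91 of 100 probe sets before adjustment and 1 of 100 after adjustment over 24374. Smaller increases were not simulated. For Scnn1a the ratio was 0.89 (adjusted p = 0.997); a difference in spread between the subunits was not tested. Without replicate 1 the range was 0.59 log2 units for Scnn1b and 0.59 for Scnn1g, and their SDs were 2.08 and 2.19 times the fitted SD. Then neither passed before adjustment, so the result for the pair rests on replicate 1. Of the 19 member probe sets 1 passed without that array, of Nedd4l, against 1386 of all 25238 probe sets. In a bulk sample, fewer cells of a type and less RNA per cell cannot be told apart.

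**Figure D2:**
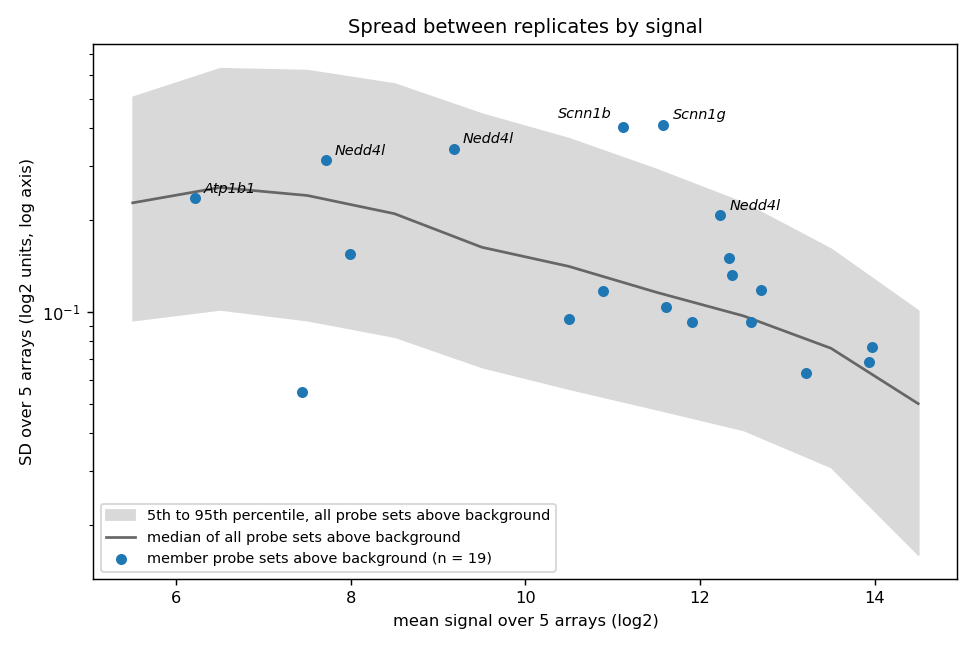
SD over the 5 arrays (vertical, log axis) against mean log2 signal (horizontal) for the 19 member probe sets above background, with the 5th to 95th percentile band and median of all 25238 probe sets above background. Scnn1b and Scnn1g lie above the band at SDs of 0.40 and 0.41.

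Scnn1b and Scnn1g are close neighbours on mouse chromosome 7 in the RefSeq annotation, with 1 gene, the lncRNA Gm36848, listed between them, and both are on the plus strand. Their upstream sequences are shown because these subunits were low in the same arrays. They come from RefSeq promoters of build GRCm38.p6, and each ends before the gene's first annotated start. Matches to the GC box GGGCGG, bound by SP1-type factors, and to the E-box CACCTG are in capitals, on either strand.
Scnn1b, chr7:121864788-121865037: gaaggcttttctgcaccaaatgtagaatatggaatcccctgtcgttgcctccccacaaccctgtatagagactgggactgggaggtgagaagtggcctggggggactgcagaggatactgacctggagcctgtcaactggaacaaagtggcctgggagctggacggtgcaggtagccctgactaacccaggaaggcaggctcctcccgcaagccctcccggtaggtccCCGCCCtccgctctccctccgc
Scnn1g, chr7:121734229-121734419: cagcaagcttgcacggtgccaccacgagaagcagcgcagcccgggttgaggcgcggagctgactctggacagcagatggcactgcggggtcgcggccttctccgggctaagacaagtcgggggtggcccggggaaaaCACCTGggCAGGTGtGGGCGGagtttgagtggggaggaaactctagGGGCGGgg
Both hold the GC box, and Scnn1g also holds the E-box; no matches overlap in the printed stretches.

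Promoters of 6 of the 9 members were found in the RefSeq table: Atp1b1, Cftr, Scnn1b, Scnn1g, Spint1 and Spint2. In the first 250 bases of each promoter sequence, GGGCGG was found on either strand in 6 of the 6. It was found in 32.7% of 32851 mouse promoter windows of that length. For Scnn1g only the first 191 of these bases lie before the gene's first annotated start. CACCTG was found in Scnn1g and Spint2 and in 17.2% of all windows. AGAACA (a steroid receptor half-site), GGAATG (the TEAD core) and CTCAAG (an NKX2-1 core) were found in none of the 6, and in 16.1%, 12.6% and 13.3% of all windows. The 6 windows were 60.8% to 76.4% G and C. That share was not computed for all 32851 windows, so whether GGGCGG is frequent beyond such content was not tested. These are matches of letters and not shown binding sites.

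Other measurements had their low arrays in replicates 1 and 4 too. Polyadenylated control transcripts of Bacillus (dap, lys, phe and thr, 24 probe sets), which are usually added to the RNA before labelling, averaged 8.12, 9.25, 8.86, 8.02 and 8.59. All 24 of these probe sets were lowest in replicate 1 or 4, and 23 were highest in replicate 2. The 3′ minus 5′ difference of Gapdh was 1.27, 1.52, 1.67, 1.39 and 1.60, lowest in replicate 1 and next lowest in replicate 4. That of Actb was 0.60, 0.54, 0.84, 0.55 and 0.56, lowest in replicate 2. Alveolar type 1 markers deviated from their own means by -0.17, 0.08, 0.10, -0.09 and 0.08, with 6 of 8 genes lowest in replicate 1, against 22.8% of all probe sets above background. Their summed signal ran from 16.37 to 16.54 on the log2 scale. Within that list the SD ran from 0.02 for Ager and Cldn18 to 0.43 for Rtkn2, and Pdpn was highest in replicate 4 (13.38). Alveolar type 2 markers deviated by -0.09 to 0.06, with a summed signal of 17.09 to 17.22 and 0 of 8 lowest in replicate 1. The summed signal of the ciliated markers was 12.96 in replicate 1 and 11.48 to 12.30 in the others. The part of these in the values of Scnn1b and Scnn1g was not tested.

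**Figure D3:**
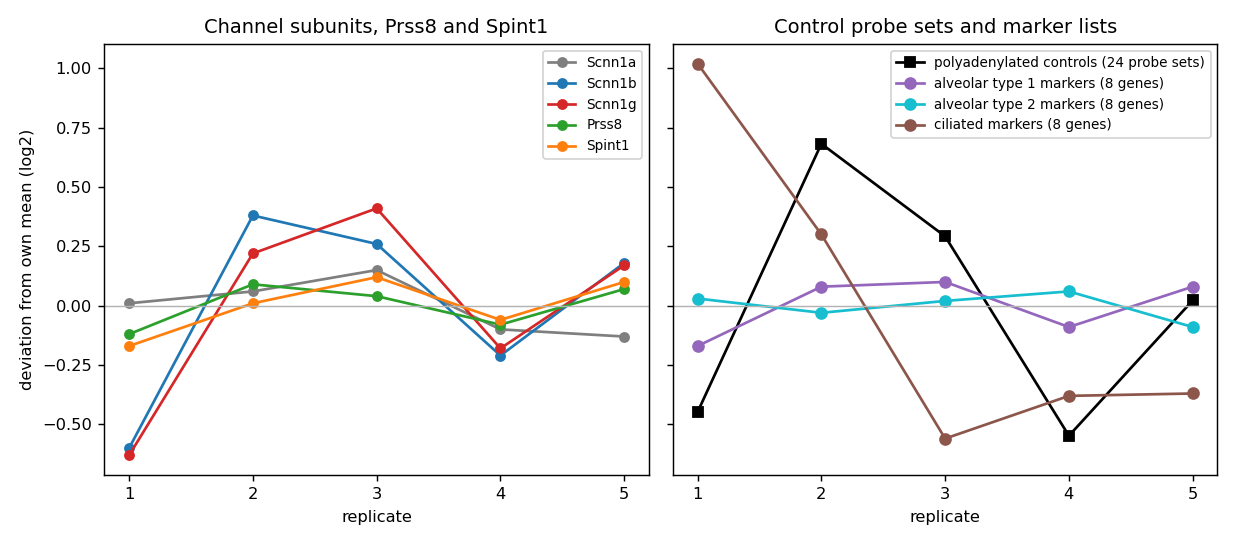
Deviation from the own mean over the 5 arrays (log2 units, vertical) by replicate (horizontal). Left, the channel subunits, Prss8 and Spint1; right, the mean of 24 polyadenylated control probe sets and the mean of 8 markers each of alveolar type 1, alveolar type 2 and ciliated cells. Scnn1b and Scnn1g lie at -0.60 and -0.63 in replicate 1.

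Likeness of pattern was measured for Scnn1g, the called member with the largest range, as the root mean square difference of mean-centred values over the 5 arrays. Among 25237 other probe sets above background, the 3 most alike were of Sema3e, a semaphorin gene (0.034 log2 units), Rere, a transcriptional co-regulator gene (0.050), and Adamts10, a secreted metalloprotease gene (0.055). Sema3e read 9.59, 10.41, 10.67, 10.01 and 10.44. Rere read 5.45, 6.19, 6.39, 5.84 and 6.25, close to the background of 5.37 in replicate 1 and 5.61 in replicate 4. Scnn1b was at rank 40 (0.099). With 5 arrays no correlation was computed.

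Prss8 encodes prostasin, the membrane-anchored protease that activates the sodium channel. It read 11.79, 12.00, 11.95, 11.84 and 11.98 (11.91 ± 0.093), 6.47 above background (SE 0.074, limma adjusted p = 1.94e-19). The arrays were within 1.16-fold of each other. Spint1, which encodes the Kunitz inhibitor HAI-1, read 12.53, 12.70, 12.81, 12.64 and 12.80 (12.70 ± 0.12), 7.25 above background (SE 0.069, adjusted p = 3.25e-20). In both genes replicate 1 was lowest and replicate 4 next lowest, as in Scnn1b and Scnn1g. Of all probe sets above background 22.8% were lowest in replicate 1, and the share with replicate 4 next lowest was not computed. The ranges of Prss8 and Spint1 were only 0.21 and 0.28 log2 units. Their SDs were 0.86 and 1.31 times the fitted SD (limma-based F test, adjusted p = 0.997 for each).

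Spint2, which encodes the related inhibitor HAI-2, had 2 probe sets. Probe set 1451935_a_at read 13.15, 13.26, 13.16, 13.19 and 13.29 (13.21 ± 0.063). Probe set 1438968_x_at read 12.33, 12.57, 12.33, 12.40 and 12.21 (12.37 ± 0.13). Replicate 5 was the highest array in the first and the lowest in the second, so the probe sets gave no common order of the replicates. Both were above background, by 7.76 and 6.92 (limma adjusted p = 1.08e-20 and 1.47e-19).

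Nedd4l encodes a HECT-type ubiquitin ligase that binds the sodium channel and marks it for removal. All 6 of its probe sets lay above background, by 1.99 to 6.79 log2 units; with organ-restricted genes as background, which lies higher, 1423270_at, 1437400_at and 1456044_at were not called. The one with most signal, 1423269_a_at, read 12.25, 12.05, 12.58, 12.19 and 12.10 (12.23 ± 0.21), with replicate 3 highest. Replicate 3 was the high array of 1457374_at too, which read 9.71 there and 8.87 to 9.31 elsewhere (9.18 ± 0.34). In 1423270_at the same array was low, reading 7.72 while the other arrays read 8.02 to 8.10 (7.98 ± 0.15), and 1437400_at had its lowest value there too, at 7.36 (7.44 ± 0.054).

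The other Nedd4l probe sets, 1441305_at (10.50 ± 0.095) and 1456044_at (7.71 ± 0.31), were highest in replicate 1. The latter was lowest in replicate 5, at 7.25. The probe sets of Nedd4l thus gave no common order of the arrays, and none passed the spread test (lowest adjusted p = 0.961). Without replicate 3 the range of 1423269_a_at was 0.20 in place of 0.53 log2 units, that of 1457374_at 0.44 in place of 0.83 and that of 1423270_at 0.08 in place of 0.38. RNA of replicate 3 had the largest 3′ minus 5′ differences of the control genes, as given above; their part in these values was not tested.

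Cftr, the chloride and bicarbonate channel mutated in cystic fibrosis, gave discordant probe sets. Probe set 1420579_s_at read 11.58, 11.47, 11.64, 11.76 and 11.62 (11.61 ± 0.10), 6.17 above background (SE 0.066, limma adjusted p = 8.89e-20). Its arrays were within 1.22-fold of each other, with replicate 4 highest and replicate 2 lowest. Probe set 1427767_a_at read 5.65, 5.25, 5.33, 5.64 and 5.36 (5.45 ± 0.19). It differed from background by -0.0012 (SE 0.12, adjusted p = 0.669) and was not called. The letters at the end of the first name mark a probe set that can hybridise to several transcripts, so the level of Cftr rests on 1 such probe set. With the 90th percentile as background the low probe set was called, 0.45 above it (adjusted p = 0.00144).

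Cftr is known as a marker of airway ionocytes, rare cells that carry much of the channel in the airway. Of 4 measured ionocyte markers 1 lay above background, Atp6v0d2 (8.69, 8.52, 8.67, 9.38 and 9.07). The ionocyte transcription factor genes Foxi1 (3.51 ± 0.06) and Ascl3 (5.63 ± 0.33) and the gene Stap1 (5.13 ± 0.42) were not called.

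Atp1b1 encodes the beta subunit that the sodium pump needs to reach the membrane. Of its 5 probe sets, 1423890_x_at read 14.08, 13.93, 13.96, 14.01 and 13.89 (13.97 ± 0.077). Probe set 1451152_a_at read 14.04, 13.92, 13.88, 13.97 and 13.87 (13.94 ± 0.068). Both were highest in replicate 1 and lowest in replicate 5. Probe sets 1418453_a_at and 1439036_a_at gave 12.59 ± 0.093 and 12.33 ± 0.15. The fifth, 1455949_at, read 6.60, 6.21, 6.00, 6.19 and 6.04 (6.21 ± 0.24), only 0.76 above background (SE 0.14, limma adjusted p = 5.72e-05). It had its highest value in replicate 1. With the 99th percentile as background it was not called (-0.17, adjusted p = 1), and without replicate 1 its range was 0.21 in place of 0.60 log2 units.

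Over all 20 member probe sets the median SD between replicates was 0.12, and over all 34958 probe sets it was 0.18. The members' median signal was also higher than that of all probe sets, as given above. Among probe sets above background the median SD was lower at high signal. It was 0.26 for signals between 6 and 7 and 0.076 between 13 and 14. The lowest array of the 19 was replicate 1 for 5 probe sets, replicate 2 for 5, replicate 3 for 3, replicate 4 for 0 and replicate 5 for 6, against 22.8%, 20.6%, 25.3%, 16.6% and 14.7% of all probe sets above background.

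Genes that work with the members were taken from a list of 50, of which 45 were measured. Of the 45, 42 lay above background, against 75.3% of 18194 genes when a gene is taken at its brightest probe set. Their median lay 5.65 log2 units above background. None passed the spread test after adjustment, and 4 of the 42 (Bpifa1, Fxyd1, Fxyd5 and Sgk3) did at an unadjusted p under 0.05, against 6.93% of the 13699 genes above background.

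Among genes of the sodium pump and its FXYD regulators, 9 of 10 were called, against 75.3% of all genes, as for each role below. The median lay 2.96 above background, and most of the 10 were FXYD genes and not pump subunits. The beta subunit gene Atp1b3 had 12.07 ± 0.058. The testis-type alpha subunit gene Atp1a4 (5.93 ± 0.31) and the beta subunit gene Atp1b2 (6.12 ± 0.060) lay only 0.48 and 0.67 above background and were not called with the 99th percentile. Fxyd7, of the small FXYD proteins that modulate the pump, had 4.94 ± 0.37 and was not called (limma adjusted p = 1).

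Of the genes of hormone and ubiquitin control of the channel, 13 of 14 were called, with a median of 5.73 above background. Sgk1, the kinase that keeps NEDD4L off the channel in response to steroid hormones, read 13.43, 13.27, 13.26, 13.48 and 13.21 (13.33 ± 0.12). Its kin Sgk3 had 10.08 ± 0.39, and Sgk2 had 5.02 ± 0.15 and was not called (limma adjusted p = 1).

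Among channel-cleaving proteases and their inhibitors, 7 of 8 were called, with a median of 6.16 above background. Furin, the Golgi protease that makes the first cuts in the channel, had 13.06 ± 0.033. St14, which encodes matriptase, the target of HAI-1, had 11.93 ± 0.054, and the transmembrane protease gene Tmprss2 11.73 ± 0.19. Plau, the urokinase gene, had 4.53 ± 0.12 and was not called (limma adjusted p = 1). Bpifa1, whose secreted product SPLUNC1 inhibits the sodium channel, was chosen after its values were seen. It read 7.01, 5.18, 5.39, 7.33 and 5.07, so that replicates 1 and 4, low for Scnn1b and Scnn1g, were high for it. Its call (0.55 above background, SE 0.28, adjusted p = 0.0474) was lost without replicate 1 (adjusted p = 0.214) or replicate 4 (0.282).

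Of the chloride and bicarbonate transport genes 13 of 13 were called, with a median of 6.53 above background. Slc12a2, the basolateral cotransporter that loads cells with chloride, had 13.60 ± 0.031, and the exchanger gene Slc26a6 8.74 ± 0.14. Slc26a4, which encodes pendrin, read 5.54, 6.63, 5.46, 5.73 and 5.94 (5.86 ± 0.47), highest in replicate 2. It lay 0.41 above background (SE 0.17, limma adjusted p = 0.0213), but leaving out replicate 2 ended that call (adjusted p = 0.133).

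**Figure D4:**
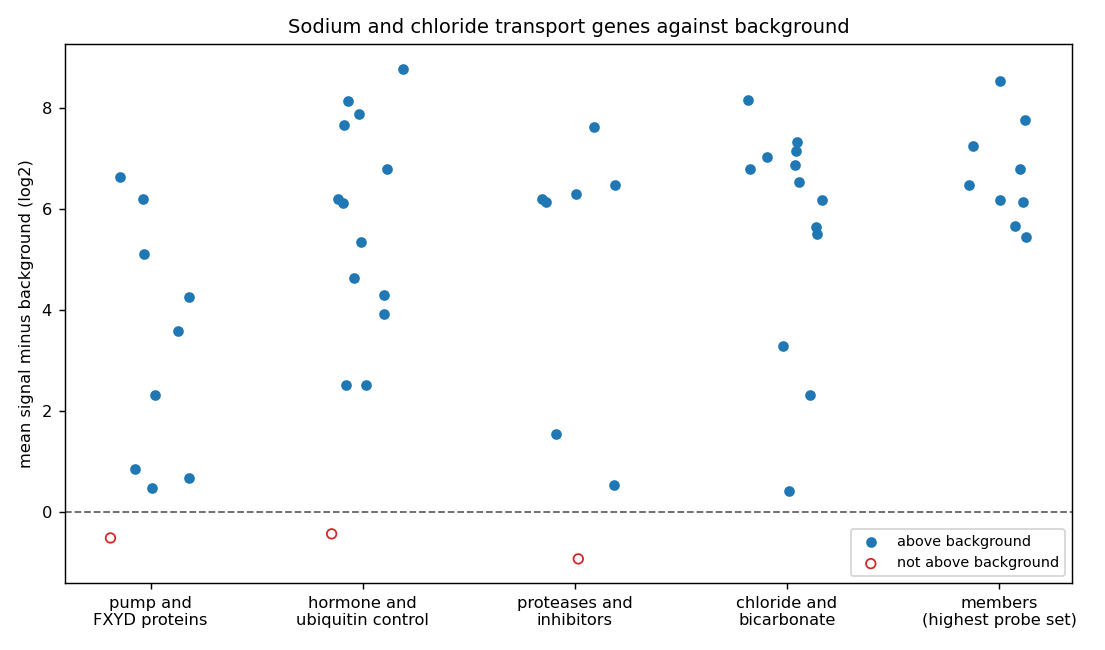
Mean log2 signal minus background (vertical) of 45 sodium and chloride transport genes by role and of the 9 members, each at its brightest probe set; filled points were above background and open points were not. All 9 members lie between 5.44 and 8.53, and Fxyd7, Sgk2 and Plau lie below 0.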

How the data were processed

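RNA of 5 samples was measured on 1-colour Affymetrix arrays. The deposited values were taken as log2 signals per probe set, a scale inferred from their range (2.46 to 15.24); for the software, background correction, normalization and log base: not given in the sources used here. Array medians were 7.12 to 7.19, and values were used as deposited. Saturation could not be checked without scanner files, and the number of arrays limits the precision.

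Gene names came from the platform's 2016 annotation: 34958 of the 45101 probe sets carried a single symbol and were kept, while 932 with several and 9211 with none listed were set aside. Of the pathway list 45 of 50 genes were analysed; the others are not reported here, nor are Lamp3 and Atp6v1g3 of the marker lists.

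The test against background was fitted in limma 3.58.1 (R 4.3.3; intercept only, eBayes with trend, one-sided) to all 34958 probe sets, on values minus the array's background. Background was the 95th percentile of 86 probe sets of 77 chemosensory receptor genes. The spread test divided the variance over the 5 arrays by the variance limma's robust trend fitted at that signal (one-sided F test, 4 and 4.29 degrees of freedom). Benjamini-Hochberg adjustment ran over all probe sets in each fit, at a threshold of 0.05. On simulated data, the background test recovered 98 of 100 probe sets set 0.5 log2 units above background and 100 of 100 set at 1, among 34958 probe sets. The spread test recovered 1 of 100 with SD raised 5 times and 75 of 100 raised 20 times, among 24374 (91 and 100 before adjustment).

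Members, gene lists and tests were chosen with earlier results of these data known. A pathway gene was taken at its brightest probe set. Pathway genes are named with values if among the first 3 of their role with a probe set, in the smaller class of the background call (5 or fewer in a role), or past the spread test; the text marks any other as picked with its values known. Alternatives were other backgrounds, units, normalizations, variance models and filters, and each replicate left out.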

Additional observations from a re-analysis of the deposited data

Results flagged for a closer look

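Nedd4l probe set 1423270_at stood apart in replicate 3: its gap to the nearest array was 0.791 of the whole range, with 7.72 in replicate 3 against 8.02 to 8.10. The mean of the bioB and bioC hybridisation controls had 12.73 in replicate 1 against 11.78 to 11.98, a gap of 0.789 of the range. The Actb 3′ minus 5′ difference had 0.84 in replicate 3 against 0.54 to 0.60, a gap of 0.800 of the range. These 3 exceeded Dixon's critical value of 0.71 for 5 arrays among 48 sets of values, and chance gives about 1 in 20.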

How the results depend on the processing

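No paired analysis was possible because there was 1 group. Of 20 member probe sets 19 were above background, against 72.2% of all probe sets. By gene it was 9 of 9, against 75.3% of all genes. With _s_at, _x_at and _a_at probe sets left out it was 11 of 11, against 69% of all. Those 11 hold none of Cftr or Spint2, and of Atp1b1 only 1455949_at. Without any 1 replicate the count stayed at 19, against 71.5% to 72.2% of all probe sets. The count was 20 with the 90th percentile, 18 with the 99th and 15 with organ-restricted genes as background. Of all probe sets 77.6%, 61.7% and 46.4% were called with these backgrounds. Excess spread was called in 0 members under each alternative that was run and without each replicate in turn; the version with a prior that is not robust could not be fitted. Counts of pathway genes ran from 41 to 42 with a replicate left out, and were 37 with the 99th percentile. They were 32 with organ-restricted genes as background and 31 of 35 without those types. The share of all genes called at their brightest probe set was not computed for these settings.

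Signals near background changed sides. With the 90th percentile, Cftr 1427767_a_at lay at 0.45 and Sgk2 at 0.02 above background. With the 99th, Atp1b1 1455949_at lay at -0.17, Slc26a4 at -0.52, Bpifa1 at -0.38, Atp1b2 at -0.26 and Atp1a4 at -0.45. With organ-restricted genes (background 7.62 to 8.53) Nedd4l 1437400_at lay at -0.41, Nedd4l 1456044_at at -0.14, Atp1b1 1455949_at at -1.64, Slc26a4 at -1.99, Bpifa1 at -1.85, Atp1b2 at -1.73 and Atp1a4 at -1.92. Nedd4l 1423270_at kept its sign there (0.13) but not its call (limma adjusted p = 0.558). With a replicate left out, Cftr 1427767_a_at ran from -0.07 to 0.03, above 0 without replicate 2 (0.02), 3 (0.03) or 5 (0.03). Bpifa1 was not called without those probe set types (adjusted p = 0.0517) or without a variance trend (0.0742). Ranges without single replicates were added after seeing the data.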
